A study of Mus musculus with 12 samples.

Results

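Interleukin-1 (IL-1) family transcripts were followed through all 12 libraries of the series. Members were the rows of the deposited expression table with the symbols of 3 agonist ligands (Il1a, Il1b and Il18), the signalling receptor Il1r1, and 3 antagonists or decoys (Il1rn, Il1r2 and Il18bp). All 7 were found among 38739 gene symbols, and each has a value in every sample. The libraries came from bone marrow-derived macrophages (BMDMs), which are cells grown out of mouse bone marrow. The labels' RNA extraction step names neutrophils instead, so neutrophil markers are given with the results. Wild-type (WT) cells and cells lacking cGAS, the sensor of cytosolic DNA (cGAS-/-), were each left in medium (untreated, UT) or given lipopolysaccharide (LPS) from E. coli 026:B6, with 3 samples per group. The methods describe male mice 8 weeks of age on the C57BL/6J background, with cGAS-/- cells taken from cGAS knockout mice. The labels give LPS at 100 ng/mL for 1 h and the methods give 150 ng/mL for 24 h, so the exposure behind the LPS values is uncertain. The study describes the samples of a group as technical replicates. The p-values below therefore measure only the spread between such samples, which may be technical. Those of the model fit use a spread per gene that all groups share, so a widely spread group also affects comparisons without it.

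IL-1 alpha and IL-1 beta, encoded by Il1a and Il1b, bind the receptor encoded by Il1r1, which signals through the adaptor Myd88 and IRAK kinases to NF-kappaB. The product of Il1rn, the IL-1 receptor antagonist, occupies the same receptor without signalling, and the product of Il1r2 is a decoy receptor that binds ligand but does not signal. Il18 encodes a related cytokine, and Il18bp encodes the binding protein that neutralises it. Macrophages are a main source of IL-1 beta after contact with bacterial products, and pro-IL-1 beta and pro-IL-18 are cut to their active forms by caspase-1 in inflammasomes.

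Values are TPM, transcript levels scaled by transcript length and by the total of the library. A symbol appears to carry the average over its listed transcripts, so a ratio of TPM between genes depends on how many transcripts are listed. Such ratios are therefore compared only between groups. Cgas was at 1.19 to 3.25 TPM in the 6 WT samples and 0.0703 to 0.290 TPM in the 6 cGAS-/- samples. WT LPS replicate 3 stood apart from the rest. Its values summed to 709802, against 447189 to 503156 in the other 11 samples. Protein-coding genes held 18.5% of that sum, against 39.7% to 54.4% elsewhere, and the ferritin pseudogene Fth-ps3 held 31.7% of it. Fth-ps3 held 6.2% to 8.4% in UT samples, 10.6% and 15.5% in WT LPS replicates 1 and 2, and 17.2% to 17.7% in cGAS-/- LPS samples. The fold changes of the 5 tested members that rest on WT LPS replicate 3 are therefore given with and without it, and values of other genes with it only. Of 9 macrophage markers, 6 are in the table, and their summed level was 17241 to 17987 TPM in WT UT, 20527 to 22406 in cGAS-/- UT, 16806 to 26799 in WT LPS and 33668 to 34130 in cGAS-/- LPS samples. Lyz2 made up most of these sums and was higher in cGAS-/- than in WT cells with LPS (log2 fold change 0.80, limma adjusted p = 0.0273), in the comparison in which Il1a and Il1b were higher, while the other 5 were not called. The part of this shift in the results for Il1a and Il1b was not tested. In bulk RNA, fewer cells of a type and less RNA per cell cannot be told apart.

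Il1a (chr2:129140291-129152098, minus strand, GRCm39) and Il1b (chr2:129206490-129213059, minus strand) are neighbours on chromosome 2. Il1rn lies elsewhere on the same chromosome (chr2:24226865-24241506, plus strand). Il1r2 (chr1:40113239-40164391, plus strand) and Il1r1 (chr1:40264174-40356417, plus strand) are on chromosome 1, Il18 is at chr9:50466081-50493633 (plus strand) and Il18bp at chr7:101638490-101668206 (minus strand). The 250 bases upstream of the canonical transcript start are shown for the 3 members whose levels differed between genotypes with LPS. They are written 5′ to 3′ on the strand of the gene, at chr2:129152099-129152348 for Il1a, chr2:129213060-129213309 for Il1b and chr2:24226615-24226864 for Il1rn. Capitals mark matches to any of 6 motifs searched on both strands.
Il1a: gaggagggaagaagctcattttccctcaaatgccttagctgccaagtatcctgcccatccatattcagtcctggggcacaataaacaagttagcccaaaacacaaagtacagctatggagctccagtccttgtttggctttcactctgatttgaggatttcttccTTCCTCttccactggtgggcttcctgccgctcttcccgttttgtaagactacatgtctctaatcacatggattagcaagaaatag
Il1b: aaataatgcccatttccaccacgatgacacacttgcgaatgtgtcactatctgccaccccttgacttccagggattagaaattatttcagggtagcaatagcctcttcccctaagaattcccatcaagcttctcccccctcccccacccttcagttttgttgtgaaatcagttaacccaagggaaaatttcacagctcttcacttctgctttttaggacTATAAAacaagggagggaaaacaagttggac
Il1rn: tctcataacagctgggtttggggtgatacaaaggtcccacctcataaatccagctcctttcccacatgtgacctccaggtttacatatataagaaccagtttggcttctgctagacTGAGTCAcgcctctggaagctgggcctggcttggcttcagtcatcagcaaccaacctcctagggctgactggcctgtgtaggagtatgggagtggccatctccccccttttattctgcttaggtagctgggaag

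The Il1a window holds GAGGAA, the core bound by the myeloid factor PU.1, read on the opposite strand at -85 to -80 from the start. This motif occurred in 22.9% of 21751 promoter windows of the same length. The Il1b window holds TATAAA at -31 to -26, which 11.9% of windows hold. The Il1rn window holds 1 AP-1 site at -134 to -128, spelled TGANTCA in the search and matching both strands at the same place, and 6.17% of windows hold one. The kappaB motif (4.23% of windows), the C/EBP motif TTGCNNAA (9.34%) and the interferon-stimulated response element (ISRE, 3.32%) had no match in these 3 windows. Matches describe letters in a window and were not tested against the expression values.

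Of the 7 members, 5 were expressed at 1 TPM or more in at least 3 samples and entered the model, a limma fit of log2(TPM + 1) over 9855 genes with Benjamini-Hochberg adjusted p-values. Il1r1 and Il1r2 were below that level. Il1a met it only through its LPS samples, so the filter favoured a rise of Il1a with LPS. In WT cells, 4 of the 5 tested members rose with LPS, against a background of 4.86% of all tested genes called higher. In cGAS-/- cells, 3 of 5 rose, against 5.56%. Between genotypes with LPS, Il1a and Il1b were higher in cGAS-/- cells and Il1rn was lower, against 1.53% and 1.07% of genes called higher and lower. In UT cells, no member was called by limma at an adjusted p under 0.05, where 1.82% of genes were, and 1 of the 5 members, Il1rn, had an unadjusted p below 0.05. The median log2 fold change of all tested genes was -0.55 for LPS in WT cells, -0.22 for LPS in cGAS-/- cells and 0.27 between genotypes with LPS, and it lay within 0.04 of 0 after trimmed mean (TMM) scaling. The members' medians in the same comparisons were 4.08, 3.14 and -0.42.

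**Figure D1:**
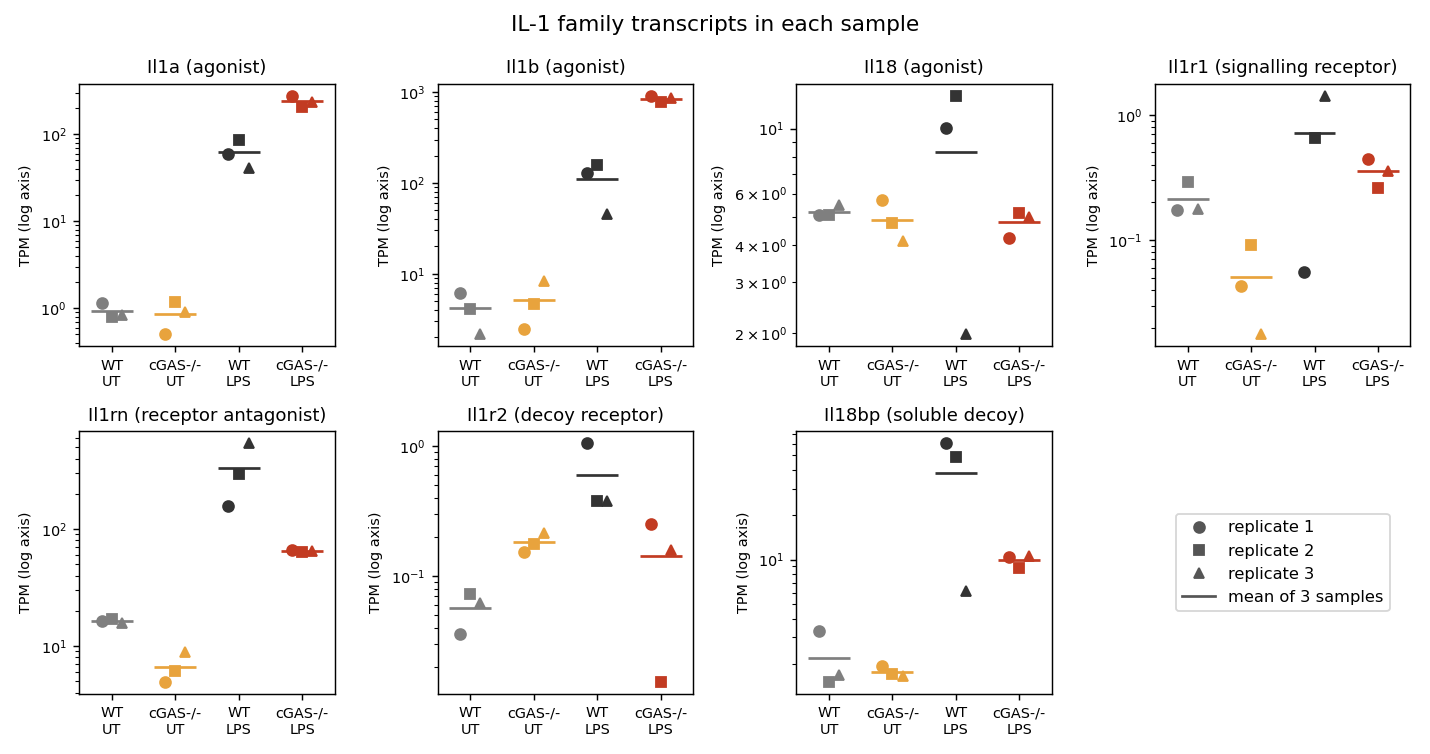
Expression of the 7 members in each sample, in TPM on a log axis, by genotype and treatment, with 1 point per sample and a horizontal line at each group mean. With LPS, the 3 cGAS-/- samples lie at 771 to 915 TPM for Il1b and at 64.3 to 66.6 TPM for Il1rn, and the 3 WT samples at 45.4 to 156 TPM and 156 to 540 TPM.

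Il1b, which encodes the secreted agonist IL-1 beta, was at 6.21, 4.08 and 2.17 TPM in WT UT samples and at 2.45, 4.68 and 8.24 TPM in cGAS-/- UT samples. With LPS it was at 127, 156 and 45.4 TPM in WT cells and at 915, 771 and 856 TPM in cGAS-/- cells. The UT groups overlapped, each LPS group lay above its UT group, and all cGAS-/- LPS samples lay above all WT LPS samples. Of all tested genes, 5.71% in WT and 17.2% in cGAS-/- cells had LPS samples all above UT samples, and 13.8% had cGAS-/- LPS samples all above WT LPS samples. The mean was 7.72-fold higher in cGAS-/- than in WT cells with LPS, and 5.97-fold higher without WT LPS replicate 3. The log2 fold change between genotypes was 3.11 (SE 0.499, limma adjusted p = 0.00789), and leaving out WT LPS replicate 3 made it 2.57 (limma adjusted p = 0.00357). This call was lost without cGAS-/- LPS replicate 1 (limma adjusted p = 0.0537), with sample weights (limma adjusted p = 0.127) and when the 6 LPS samples were fitted alone (limma adjusted p = 0.111). LPS raised Il1b by 4.33 on the log2 scale in WT cells (SE 0.499, limma adjusted p = 0.00013) and by 7.22 in cGAS-/- cells (limma adjusted p = 3.74e-06). In WT cells the rise was 4.86 when WT LPS replicate 3 was left out. In cGAS-/- cells it had the 3rd largest rise of the 9855 genes. The study's own PCR of this transcript in LPS-treated BMDMs went the other way, with WT cells above cGAS-/- cells. The cause of this difference was not tested.

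Il1a, which encodes the largely cell-associated agonist IL-1 alpha, was near 1 TPM in UT cells of both genotypes, at 1.15, 0.793 and 0.836 TPM in WT and 0.505, 1.18 and 0.903 TPM in cGAS-/- samples. With LPS it was at 58.9, 84.9 and 41.4 TPM in WT and 279, 205 and 234 TPM in cGAS-/- cells. As for Il1b, the UT groups overlapped and the LPS groups did not. The mean with LPS was 3.88-fold higher in cGAS-/- cells, and 3.33-fold higher without WT LPS replicate 3. The log2 fold change between genotypes was 1.99 (SE 0.284, limma adjusted p = 0.0045), and the call was lost when the 6 LPS samples were fitted alone (limma adjusted p = 0.191). This fold change also fell just short of the second threshold in the methods, a log2 fold change beyond 2. LPS raised Il1a by 4.97 in WT cells (SE 0.284, limma adjusted p = 1.44e-06) and by 7.02 in cGAS-/- cells (limma adjusted p = 1.39e-07), the 12th and the 5th largest rises. In WT cells the rise was 5.22 when WT LPS replicate 3 was left out. Its LPS response differed between genotypes by 2.05 (SE 0.402, limma adjusted p = 0.0423), where 0.974% of genes were called, and this call was lost without any 1 of 10 of the 12 samples, WT LPS replicates 2 and 3 being the exceptions (1.79 without the latter, limma adjusted p = 0.00606). The matching difference for Il1b was 2.90 (SE 0.706, limma adjusted p = 0.0992), and it was 2.36 once WT LPS replicate 3 was left out (limma adjusted p = 0.0362) and 3.24 when replicate 2 of that group was (limma adjusted p = 0.0206).

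Il1rn, the receptor antagonist, moved the other way between genotypes. It was at 16.5, 17.1 and 15.6 TPM in WT UT samples and 4.94, 6.17 and 8.82 TPM in cGAS-/- UT samples. With LPS it was at 156, 298 and 540 TPM in WT and 66.6, 64.3 and 64.4 TPM in cGAS-/- cells. All cGAS-/- samples lay below all WT samples in both conditions. WT LPS replicate 3 had the highest Il1rn of its group and the lowest Il1a, Il1b, Il18 and Il18bp. With LPS the WT mean was 5.09-fold that of cGAS-/- cells, and 3.49-fold without WT LPS replicate 3. The log2 fold change of cGAS-/- against WT was -2.15 (SE 0.386, limma adjusted p = 0.0151), and -1.71 without that sample (limma adjusted p = 0.00314). The call was lost without any 1 of the cGAS-/- LPS samples (limma adjusted p = 0.078, 0.0684 and 0.0738), with sample weights (limma adjusted p = 0.0582) and when the LPS samples were fitted alone (limma adjusted p = 0.283). In UT cells the WT mean was 2.47-fold that of cGAS-/- cells and the log2 fold change was -1.22 (SE 0.386, limma adjusted p = 0.244). It was called once WT LPS replicate 3 or replicate 1 no longer entered the shared spread (limma adjusted p = 0.0132 and 0.0471), and when the UT samples were fitted alone (limma adjusted p = 0.0123). Among all tested genes, 19.4% had cGAS-/- samples all below WT samples in UT, and 4.93% with LPS. LPS raised Il1rn by 4.08 in WT (limma adjusted p = 3.06e-05) and by 3.14 in cGAS-/- cells (limma adjusted p = 0.000205), and the difference between these responses was -0.93 (limma adjusted p = 0.567), or -0.49 when WT LPS replicate 3 was left out. The rise in WT cells was 3.64 with that sample left out.

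Some markers of other cells differed between genotypes in the comparisons in which all cGAS-/- samples lay below WT for Il1rn. The 11 neutrophil markers in the table summed to 177 to 252 TPM in WT UT and 86.7 to 167 TPM in cGAS-/- UT samples, and of 8 tested, 2 (Ltf and Ngp) were called lower in cGAS-/- UT cells, where 1.82% of all tested genes were called, and 3 had an unadjusted p under 0.05. Mpo and Elane were under 0.1 TPM in all cGAS-/- UT samples, whereas Csf3r was at 18.4, 19.3 and 14.8 TPM there against 11.61, 14.65 and 11.98 TPM in WT UT samples, and S100a8, S100a9 and Lcn2 overlapped. Camp (log2 fold change -1.58, limma adjusted p = 0.162) and Mmp8 (-0.31) lay below WT in all cGAS-/- UT samples. With LPS the sums were 141 to 529 TPM in WT and 446 to 502 TPM in cGAS-/- cells, and without Lcn2, itself induced by LPS, they were 92.0 to 403 and 98.2 to 125 TPM. With LPS, 0 of the 8 passed limma's adjusted threshold and 2 (Ngp and Lcn2) had an unadjusted p under 0.05, and Lcn2 was at 376.7, 347.5 and 365.7 TPM in cGAS-/- against 126.1, 93.6 and 49.1 TPM in WT cells. Of 4 tested fibroblast markers, limma called 0 in either condition, while 4 in UT cells and 3 with LPS had an unadjusted p under 0.05, all lower in cGAS-/- cells. The 6 fibroblast markers in the table summed to 7.31 to 9.26 TPM in WT UT, 2.07 to 3.84 in cGAS-/- UT, 5.86 to 17.1 in WT LPS and 2.80 to 3.91 in cGAS-/- LPS samples. The 5 B cell markers in the table summed to 1.95 to 4.63 TPM in WT UT, 1.43 to 1.83 in cGAS-/- UT, 3.13 to 4.11 in WT LPS and 0.358 to 1.33 in cGAS-/- LPS samples, and of the 2 tested, limma called 0 in UT cells (1, Cd22, had an unadjusted p under 0.05) and 1, Cd79a, lower in cGAS-/- cells with LPS (log2 fold change -1.25, limma adjusted p = 0.0389), where 1.07% of all tested genes were called lower. The part of these markers in the Il1rn result was not tested.

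**Figure D2:**
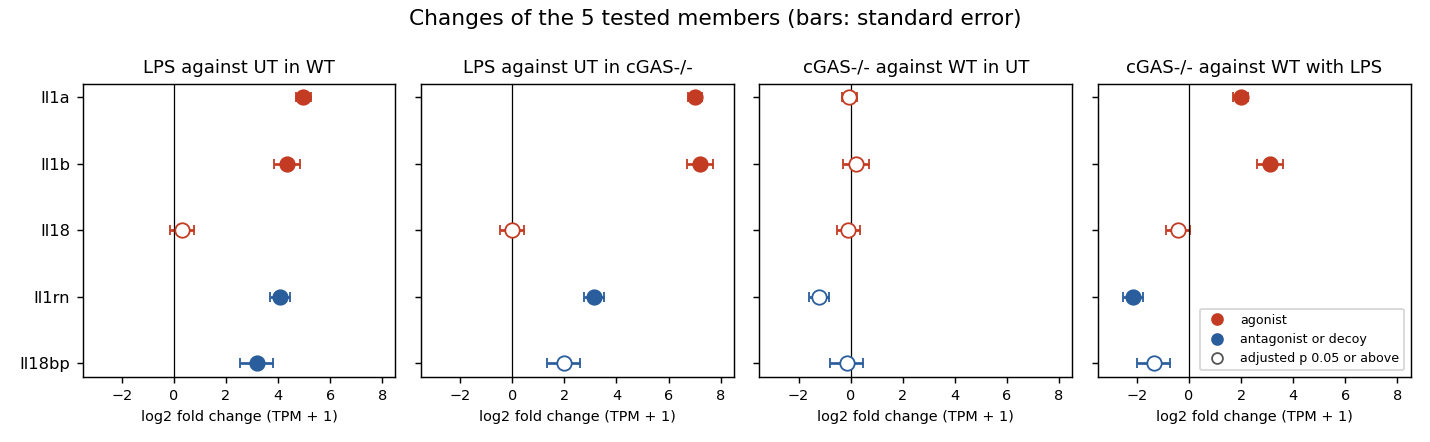
Log2 fold changes, on the log2(TPM + 1) scale, of the 5 tested members in 4 comparisons, with bars for the standard error. With LPS, Il1a (1.99) and Il1b (3.11) lie above 0 and Il1rn (-2.15) lies below it in cGAS-/- against WT cells.

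Agonist and antagonist were then set against each other within each sample. The Il1b to Il1rn ratio of TPM was 0.377, 0.238 and 0.139 in WT UT and 0.497, 0.759 and 0.935 in cGAS-/- UT samples. With LPS it was 0.815, 0.524 and 0.0841 in WT and 13.73, 11.99 and 13.29 in cGAS-/- cells. The cGAS-/- ratios lay above the WT ratios in both conditions, and the WT ratio overlapped between UT and LPS. With LPS the difference between genotypes in the log2 ratio, taken with a pseudocount of 1, was 5.27 (SE 0.996, n = 3 per group, two-sided exact permutation p = 0.1). That p is the smallest that 3 against 3 samples allow, and was 0.145 after adjustment over 16 comparisons. The geometric mean ratio without a pseudocount was 39.3-fold higher in cGAS-/- cells with LPS and 3.05-fold higher in UT cells. LPS changed the log2 ratio by 0.25 in WT (SE 1.05, exact permutation p = 0.9) and by 4.08 in cGAS-/- cells (SE 0.212, exact permutation p = 0.1). Without WT LPS replicate 3 the difference between genotypes with LPS was 4.29 and the LPS change in WT cells was 1.23.

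For Il1a to Il1rn, the ratio was 0.0698, 0.0463 and 0.0535 in WT UT and 0.102, 0.192 and 0.102 in cGAS-/- UT samples. With LPS it was 0.376, 0.285 and 0.0766 in WT and 4.18, 3.20 and 3.63 in cGAS-/- cells. The geometric mean ratio was 18.1-fold higher in cGAS-/- cells with LPS, a log2 difference with the pseudocount of 4.14 (SE 0.711, exact permutation p = 0.1), and 2.27-fold higher in UT cells. Without WT LPS replicate 3 the log2 difference with LPS was 3.45.

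**Figure D3:**
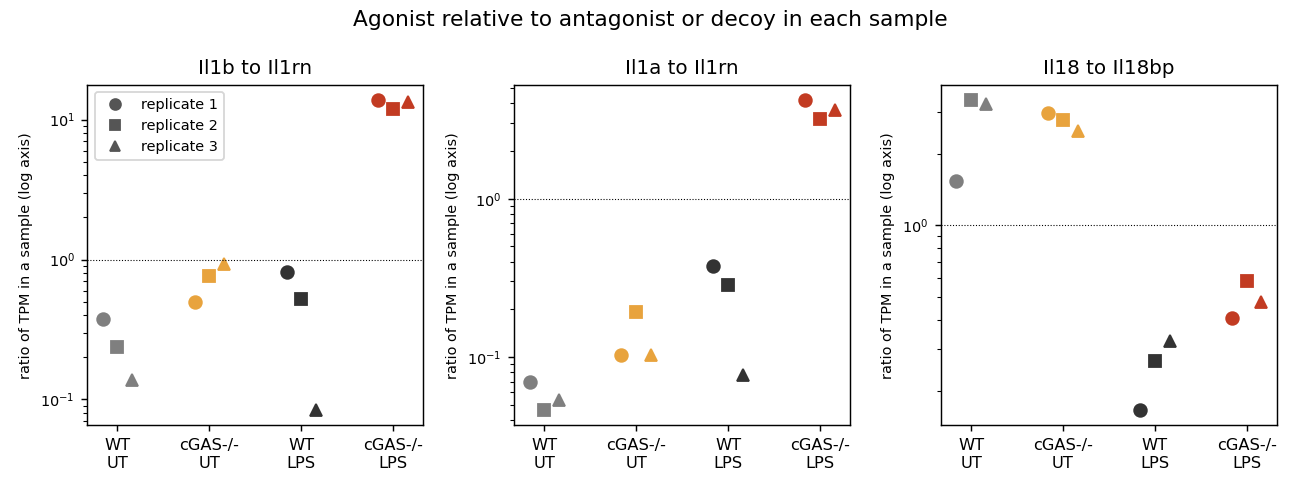
Ratio of TPM of agonist to antagonist within each sample, on a log axis, for 3 pairs by genotype and treatment, with 1 point per sample and a dotted line at 1. Ratios are compared between groups only, so the line is a guide and not a point of balance. With LPS, the Il1b to Il1rn ratio lies at 11.99 to 13.73 in cGAS-/- samples and at 0.0841 to 0.815 in WT samples.

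Il18 passed the threshold in none of the comparisons as fitted. It was at 5.06, 5.06 and 5.50 TPM in WT UT and 5.70, 4.78 and 4.14 TPM in cGAS-/- UT samples, and with LPS at 10.0, 13.0 and 1.99 TPM in WT and 4.24, 5.15 and 4.98 TPM in cGAS-/- samples. All 4 groups overlapped with at least 1 other, and WT LPS replicate 3 lay far below its 2 neighbours. The LPS log2 fold change was 0.32 in WT cells (95% interval -0.68 to 1.31, limma adjusted p = 0.598) and -0.02 in cGAS-/- cells (interval -1.01 to 0.98). Both intervals use the spread shared by all groups, so the second also carries the spread of WT LPS samples. The standard deviation of Il18 was 5.68 TPM in WT LPS, 0.782 TPM in cGAS-/- UT and 0.484 TPM in cGAS-/- LPS samples. Without WT LPS replicate 3, LPS raised Il18 by 1.00 in WT cells (limma adjusted p = 0.000659), and cGAS-/- cells were lower with LPS by a log2 fold change of -1.10 (limma adjusted p = 0.00177). With all samples kept, the rise in WT cells was also called under TMM scaling (log2 fold change 0.94, limma adjusted p = 0.0415), and the genotype difference was called under no alternative that kept that sample. The difference between the LPS responses was -0.33, and it was called when that sample was left out (-1.02, limma adjusted p = 0.0201). Transcripts of Il18 share 117 to 176 bases with transcripts of 59 other genes, so part of its reads could be assigned elsewhere.

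Il18bp, the antagonist of IL-18, was at 3.31, 1.51 and 1.69 TPM in WT UT and 1.92, 1.71 and 1.66 TPM in cGAS-/- UT samples. With LPS it was at 60.4, 48.6 and 6.14 TPM in WT and 10.5, 8.84 and 10.5 TPM in cGAS-/- samples. Both LPS groups lay above their UT groups. The LPS log2 fold change was 3.18 in WT cells (SE 0.635, limma adjusted p = 0.00402; 4.17 without WT LPS replicate 3, and limma adjusted p = 0.0596 when the WT groups were fitted alone) and 1.98 in cGAS-/- cells (SE 0.635, limma adjusted p = 0.0576). The value in cGAS-/- cells was called under 10 of 24 alternatives. Of these, 7 kept every sample, among them TMM scaling (limma adjusted p = 0.00831) and the cGAS-/- groups fitted alone (limma adjusted p = 1.71e-05), and 3 left out a WT LPS sample (limma adjusted p = 0.0354, 0.0475 and 3.22e-05 without replicates 1, 2 and 3). Between genotypes with LPS it was -1.35 (SE 0.635, limma adjusted p = 0.255), and it became -2.34 once WT LPS replicate 3 was left out (limma adjusted p = 0.000168) and -2.23 with sample weights (limma adjusted p = 0.0321). The difference between the LPS responses was -1.20 (limma adjusted p = 0.627), and -2.18 when WT LPS replicate 3 was left out (limma adjusted p = 0.00251). The ratio of Il18 to Il18bp fell with LPS, from 1.53, 3.36 and 3.26 to 0.166, 0.267 and 0.324 in WT cells and from 2.97, 2.79 and 2.49 to 0.405, 0.582 and 0.473 in cGAS-/- cells. With LPS the geometric mean ratio was 1.98-fold higher in cGAS-/- cells (exact permutation p = 0.1, adjusted 0.145), and the log2 difference with the pseudocount was 0.93, or 1.23 when WT LPS replicate 3 was left out. Il18bp overlaps exons of Numa1 on the opposite strand, and Numa1 was at 1.00 to 19.0 TPM, so reads of the 2 genes cannot be told apart there unless the quantification used strand. The library kit marks strand per the labels, and the setting of the quantification is not given in the sources used here. Il1a and Il1b have antisense partners at no more than 1.99 and 0.45 TPM.

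Receptor transcripts were near the lower end of the table. Il1r1 was at 0.175, 0.292 and 0.176 TPM in WT UT, 0.0430, 0.0915 and 0.0177 in cGAS-/- UT, 0.0557, 0.649 and 1.42 in WT LPS and 0.445, 0.262 and 0.357 in cGAS-/- LPS samples. Il1r2, the decoy, was at 0.0355, 0.0727 and 0.0619 TPM in WT UT, 0.153, 0.177 and 0.216 in cGAS-/- UT, 1.05, 0.377 and 0.380 in WT LPS and 0.253, 0.0153 and 0.158 in cGAS-/- LPS samples. With LPS, Il1r2 lay above UT in all WT samples and overlapped with UT in cGAS-/- cells, and Il1r1 lay above UT in all cGAS-/- samples and overlapped with UT in WT cells. Between genotypes, Il1r1 was below WT in all cGAS-/- UT samples and overlapped with WT after LPS, and Il1r2 was above WT in all cGAS-/- UT samples and below WT in all cGAS-/- LPS samples. Of the tested genes, which do not include these 2, LPS samples all lay above UT for 5.71% in WT and 17.2% in cGAS-/- cells. The cGAS-/- samples all lay above WT for 13.5% and below WT for 19.4% in UT, and below WT for 4.93% with LPS. The pseudocount holds the log2 ratio of these low values near 0, and the 2 genes were tested singly only in the fit without a filter on low values, over 23590 genes. There Il1r2 rose with LPS in WT cells (log2 fold change 0.58, SE 0.146, limma adjusted p = 0.0327), where 11.3% of genes were called in either direction. The matching value for Il1r1 was 0.41 (limma adjusted p = 0.32), and neither gene was called by limma in the other 4 comparisons of that fit, where the adjusted p was 0.257 or more.

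Other pathway genes were taken from 4 lists of 47 genes, of which 31 are in the table and 21 were tested. With LPS, 6 rose and 2 fell in WT cells, where 4.86% and 25.9% of all tested genes rose and fell. In cGAS-/- cells 7 rose and 1 fell, where 5.56% and 10.2% did. Il36a, an agonist ligand listed at 0 in all UT samples, was among the genes that rose in both genotypes. Il36a passed the filter only through its LPS samples, so with LPS it could be called only as a rise. The adaptor Myd88 (log2 fold changes 1.52 and 1.37), Irak3 (2.03 and 3.43) and Casp4 (2.36 and 1.80) also rose in both genotypes. Nlrp1b, an inflammasome sensor, fell in both (-2.01 and -2.19). Il36g (2.17) rose and Tollip (-0.63) fell in WT cells, and Peli1 (1.39) and Zc3h12a (2.32) rose in cGAS-/- cells. For none of the 21 did limma call the difference between the responses of the genotypes, and 3 (Il36g, Irak3 and Zc3h12a) had an unadjusted p under 0.05. Between genotypes with LPS, 2 were called, 1 in each direction, where 1.53% and 1.07% of all tested genes were called higher and lower. Irak3, which restrains IRAK signalling, was higher in cGAS-/- cells, at 57.1, 55.9 and 57.6 TPM against 17.4, 39.5 and 13.4 TPM (log2 fold change 1.39, SE 0.326, limma adjusted p = 0.0493). Casp4, the caspase that senses cytosolic LPS, was lower, at 9.34, 9.68 and 7.47 TPM against 18.4, 20.4 and 14.3 TPM (log2 fold change -0.92, SE 0.213, limma adjusted p = 0.0478). Both calls lay close to the threshold of 0.05, and they were lost under 14 (Irak3) and 15 (Casp4) of 23 alternatives, including without any 1 of the cGAS-/- LPS samples and without WT LPS replicate 1, while both held without WT LPS replicate 3. Nlrp3, the inflammasome sensor, rose with LPS by 1.41 in WT (limma adjusted p = 0.00131) and by 1.38 in cGAS-/- cells (limma adjusted p = 0.0019). Its cGAS-/- samples lay above its WT samples in both conditions, at 8.32, 10.25 and 7.55 against 3.56, 4.57 and 3.19 TPM in UT (log2 fold change 1.03, limma adjusted p = 0.0579) and at 25.55, 22.3 and 24.4 against 12.65, 14.1 and 8.71 TPM with LPS (log2 fold change 0.99, limma adjusted p = 0.0517). Of all tested genes, 13.5% in UT and 13.8% with LPS had cGAS-/- samples all above WT samples. Il36g, another agonist ligand of the family, was at 51.0, 32.0 and 75.4 TPM in WT LPS and 26.7, 14.3 and 15.2 TPM in cGAS-/- LPS samples. Its log2 fold change between genotypes was -1.42 (limma adjusted p = 0.117). Casp1 was at 37.4 to 42.7 TPM in cGAS-/- LPS and 18.8 to 65.4 TPM in WT LPS samples, a log2 fold change of -0.04 (limma adjusted p = 0.965).

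**Figure D4:**
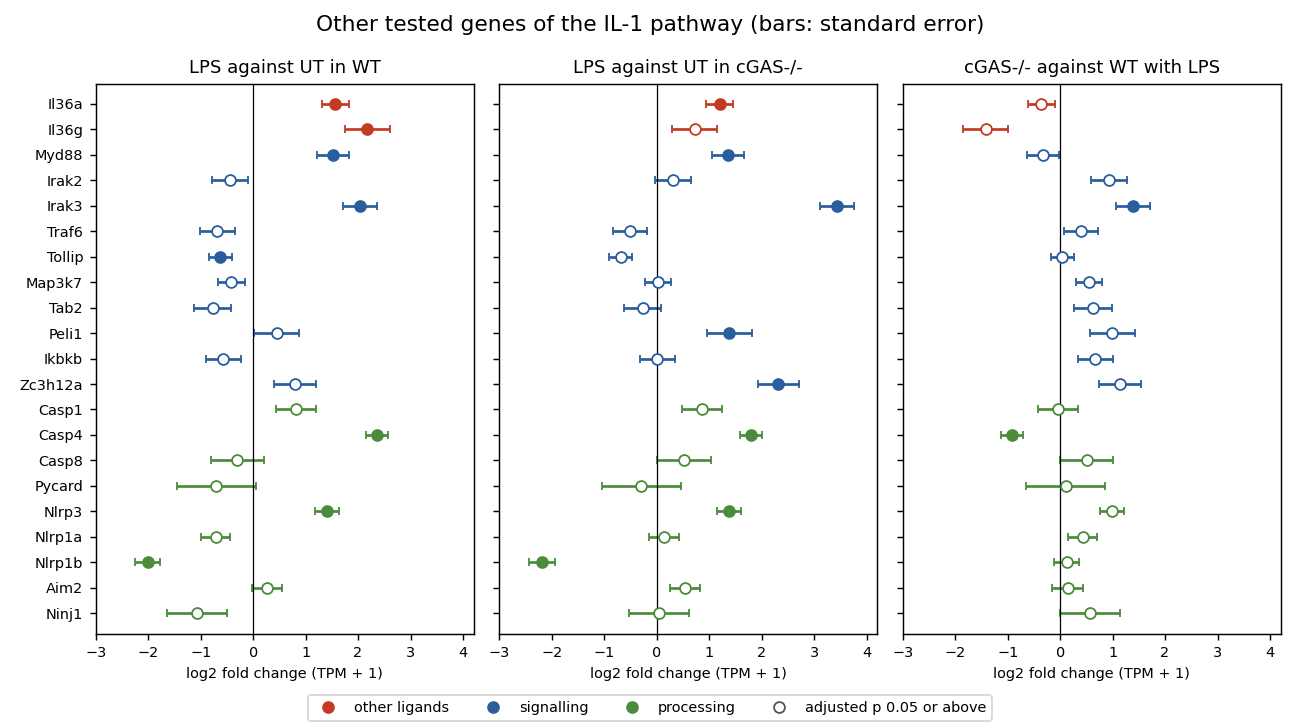
Log2 fold changes, on the log2(TPM + 1) scale, of the 21 tested pathway genes outside the members, with standard errors, in 3 comparisons. Filled points passed the adjusted p threshold, and Irak3 (1.39) and Casp4 (-0.92) are the 2 filled points between genotypes with LPS.

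Members differed in which genes followed them over the 12 samples, described by the Pearson correlation of log2(TPM + 1). Il1a was closest to Nfkbia (0.99), Hp (0.99) and Clec4e (0.99), and Il1b was closest to the same 3 genes. Il1a and Il1b correlated at 0.98. Il1rn was closest to the interferon-inducible GTPase gene Igtp (0.99), to Ly6e-ps1 (0.98) and to Parp3 (0.98), and its correlation with Il1b was 0.67. Among the genes closest to Il18bp were Sirpb1b and Sirpb1a (each 0.98), and among those closest to Il18 were Npy and Chd9 (each 0.95). The samples share the groups and the library that stood apart, so these are descriptions.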

How the data were processed

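RNA from 12 BMDM samples was sequenced. The submitters' processing notes name fastp, STAR and kallisto with build GRCm39 and give no versions. The deposited table holds 1 value per gene symbol and sample, taken here as TPM averaged over transcripts from its values and the methods, which credit the authors with kallisto; how the authors collapsed transcripts is not given in the sources used here. Read depth is unknown, and counting intervals were not given. Of 38739 symbols, 35599 matched GENCODE M39.

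TPM was fitted as log2(TPM + 1) with limma 3.58.1 in R 4.3.3 (variance trend, all 12 samples, 1 mean per group), on genes with at least 1 TPM in at least 3 samples. The groups shared the estimate of a gene's spread. P-values were adjusted by Benjamini-Hochberg over all tested genes, with 0.05 as threshold. Fold changes of low genes are understated by the pseudocount. Per-sample log2 ratios were compared by two-sided exact permutation tests. Shared transcript sequence was searched with blastn 2.17.0 at 95% identity. The fit was tested on simulated data with the same spread in every group and no sample standing apart. That setting does not cover a sample like WT LPS replicate 3. All members are named, pathway genes where they passed the threshold in any comparison, and 1 chosen after its values were seen (Casp1), together with 3 untested receptors in the closing observations, and the 3 genes most correlated with each tested member, of which 2 are not reported here. Members and lists were chosen with earlier results of these data known. Same-numbered samples did not deviate together (0 of 18 pairs with a correlation over 0.1). Alternatives were other pseudocounts, filters, scalings and fits, an added threshold of an absolute log2 fold change above 2, and leaving out each sample.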

Additional observations from a re-analysis of the deposited data

Results flagged for a closer look

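The LPS response of Il1a differed between genotypes by a tested interaction of 2.05 on the log2 scale (limma adjusted p = 0.0423), with all 3 cGAS-/- LPS samples above all 3 WT LPS samples and overlapping UT groups. The call was lost under 13 of 23 alternatives, while the direction held in all 23.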

How the results depend on the processing

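The rises of Il1a, Il1b and Il1rn with LPS in both genotypes kept direction and call under all 24 alternatives each. The number of members called between genotypes with LPS was 0 when the groups were fitted alone, and in UT cells it was 1 in that fit and 1 with sample weights. For the difference between LPS responses it was 0 with a pseudocount of 0.1, 2 with a pseudocount of 5, 0 without a filter, 2 with TMM factors, 2 with quantile normalization and 0 with the replicate block, whose numbers share only a label. Leaving out single samples, the counts ranged from 1 to 5 between genotypes with LPS (5 without WT LPS replicate 3, 1 without cGAS-/- LPS replicate 1), 0 to 1 in UT cells and 0 to 4 for the difference between responses. The causes were not tested.

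With pseudocounts of 0.1 and 5 and with none, the Il1a to Il1rn log2 ratio changed with LPS by 1.72, -0.36 and 1.86 in WT (0.89 with 1) and by 4.70, 2.77 and 4.85 in cGAS-/- cells (3.87 with 1), and the Il18 to Il18bp ratio by -3.33, -1.98 and -3.40 in WT (-2.87 with 1) and by -2.45, -1.15 and -2.51 in cGAS-/- cells (-2.00 with 1). With a pseudocount of 0.1 and with none, the Il1r1 to Il1r2 ratio changed with LPS by -1.18 and -2.46 in WT and by 1.96 and 4.16 in cGAS-/- cells (-0.16 and 0.42 with 1), between genotypes by 1.23 and 2.55 with LPS and by -1.92 and -4.07 in UT cells (0.21 and -0.37 with 1), and for the difference between responses by 3.14 and 6.62 (0.58 with 1, 0.12 with 5).

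Leaving out single samples, the Il1b to Il1rn ratio ranged from -0.40 to 1.23 for LPS in WT cells, 4.29 to 5.91 between genotypes with LPS and 2.85 to 4.48 for the difference between responses. The Il1a to Il1rn ratio ranged from 0.44 to 1.59, 3.45 to 4.59 and 2.29 to 3.43, and the Il1r1 to Il1r2 ratio from -0.55 to 0.34, -0.29 to 0.60 and 0.082 to 0.97.

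The reversed values were uncalled. Leaving out single samples, Il18 changed with LPS by -0.11 (without WT LPS replicate 2) to 1.00 (without WT LPS replicate 3) in WT cells and by -0.11 to 0.083 in cGAS-/- cells. Between genotypes with LPS it changed by -1.10 to 0.0071, and the difference between responses by -1.02 to 0.094, each from leaving out WT LPS replicate 3, where both were called, and replicate 2, where neither was. Between UT genotypes, the ranges were -0.18 to 0.086 for Il1a, -0.14 to 0.57 for Il1b, -0.19 to 0.0040 for Il18 and -0.30 to 0.089 for Il18bp. With LPS in cGAS-/- cells, Il18 was 0.23 with TMM factors and 0.18 with quantile normalization, and between UT genotypes Il1a was 0.083 with quantile normalization.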

Other observations

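Receptors of related ligands were mostly under 1 TPM. Il1rl2, the receptor of the IL-36 ligands, was at 0.107 to 0.314 TPM in UT samples, 0.209 to 1.82 TPM in WT LPS and 0.450 to 1.04 TPM in cGAS-/- LPS samples. Il1rl1, the receptor of IL-33, was at 0.241 to 0.663 TPM in WT UT samples and 0 to 0.224 TPM in all others. Il18rap, a subunit of the IL-18 receptor, was at 0.0688 to 0.915 TPM in WT LPS and 0.137 to 0.154 TPM in cGAS-/- LPS samples. None of these receptors reached the level at which genes were tested.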
